A study of Rattus norvegicus with 6 samples.

Results

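Plasma assays of microRNAs (miRNAs) are often scaled by a miRNA taken to be constant, and 6 that are commonly used in this way are described here: rno-miR-26a, rno-miR-26b, rno-miR-103, rno-miR-107, rno-miR-191 and rno-miR-425 (the prefix, for rat, is left out from here on). They were chosen by name, whatever their values, among 677 rat miRNAs on a 1-colour Agilent array, and hold 14 of its 1644 miRNA probes. The RNA came from plasma of male Wistar rats. The vehicle group received 0.9% saline into the peritoneum, and the thioacetamide group received thioacetamide at 100 mg/kg in the same saline by the same route. Thioacetamide is a liver toxicant that hepatocytes turn into reactive metabolites. Plasma was taken 24 h after dosing, RNA was extracted from 125 µl of each plasma, and 3 animals per group were measured with 1 array per animal. The animals' ages are not given in the sources used here, and plasma RNA mixes many sources, so more RNA per source and more sources cannot be told apart. The question is whether any of the 6 was steady enough between the groups to scale arrays by.

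A miRNA guides Argonaute proteins to messenger RNAs through its seed, bases 2 to 8 from the 5′ end, and miRNAs that share a seed share most predicted targets. The miR-26 family is broadly expressed and represses Ezh2, a histone methyltransferase, among other messages. miR-103 and miR-107 lie in introns of genes for pantothenate kinases, which start coenzyme A synthesis, and are known to act on insulin signalling in liver and fat. miR-191 and miR-425 are made from a shared primary transcript and are found in many tissues and blood cells. A reference for plasma must be bright enough to measure in every sample and must not move with the treatment.

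The mature sequences are shown because 2 pairs differ by so few bases that their probes could share signal. They are those of RefSeq (assembly GRCr8, strand of the miRNA), written 5′ to 3′ with the seed in capitals, and all 6 matched a table entry.
miR-26a: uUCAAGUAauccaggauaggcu
miR-26b: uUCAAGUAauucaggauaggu
miR-103: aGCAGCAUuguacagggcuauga
miR-107: aGCAGCAUuguacagggcuauca
miR-191: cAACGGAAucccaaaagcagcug
miR-425: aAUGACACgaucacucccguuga
miR-26a and miR-26b share the seed UCAAGUA, and miR-103 and miR-107 share GCAGCAU. Counted from the 5′ end, miR-26a differs from miR-26b by C11U and C21U and by its last base, and miR-103 differs from miR-107 by G22C alone. miR-191 and miR-425 have seeds of their own.

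The array reads each miRNA with nested probes complementary to it from its 3′ end, and all 14 probes matched the RefSeq sequences base for base. The miR-26b probes cover bases 2 to 21 and 1 to 21 of the miRNA, seed included. The longest probe of each is shown, 5′ to 3′, since it gave the most signal for the 5 miRNAs with 2 probes.
miR-26a probe: agcctatcctggatta
miR-26b probe: acctatcctgaattacttgaa
miR-103 probe: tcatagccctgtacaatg
miR-107 probe: tgatagccctgtacaatgct
miR-191 probe: cagctgcttttggga
miR-425 probe: tcaacgggagtgatcgtg
Either miR-103 probe has 1 mismatch to miR-107 and either miR-107 probe 1 mismatch to miR-103, so the split of signal between this pair is uncertain. The probes of miR-26a and of miR-26b each have 2 mismatches to the other miRNA. Those of miR-26a also have 1 base without a partner in miR-26b. The miR-191 probes are the shortest, at 12 to 15 bases. In the rat build rn4 the longest probes lie, as the array design gives them, at chr8:123981642-123981656 for miR-26a, chr9:73734077-73734096 for miR-26b, chr1:238806890-238806908 on the minus strand for miR-107, chr8:113614383-113614396 for miR-191 and chr8:113614833-113614849 for miR-425. The miR-103 probe lies at both chr3:118996658-118996675 and chr10:20695083-20695100. The design lists 16 positions for the 14 probes, and 12 of them span 1 base less than the probe. By the GRCr8 gene table, used for names alone, miR-26a lies within Ctdspl, miR-26b within Ctdsp1, miR-103 within Pank2 at the copy with a table entry, miR-107 within Pank1, and miR-191 and miR-425 both within Dalrd3. Whether they lie in introns or exons was not read from that table.

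The arrays lay on either side of 1 slide, by positions read from the names of the scans, and whether the sides were handled differently is not given in the sources used here. Slide columns 1 and 2 held vehicle 2, vehicle 3 and thioacetamide 1, and columns 3 and 4 held vehicle 1, thioacetamide 2 and thioacetamide 3. The spread of the miRNA spots (median absolute deviation, normal-scaled) was 33.3 to 96.6 in columns 1 and 2 and 4.92 to 12.8 in columns 3 and 4, and the dimmest spot called well above background had a signal of 138 to 437 against 18.7 to 47.0. Between 212 and 1344 of 13540 miRNA spots per array were well above background. Detection on an array means here that at least 1 probe of the miRNA had more than 50% of its unmarked spots well above background. Labelling spike-in RNA differed by -0.13 between the groups on the log2 scale (exact two-sided permutation p = 0.6, 3 against 3, where 0.1 is the smallest possible).

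None of the 6 reference miRNAs was detected on all 6 arrays, as was the case for all but 8 of the 677 miRNAs, and 4 of the 6 were detected on at least 1 array, against 99 of the 677. miR-26a, miR-26b and miR-107 were each detected on 3, miR-103 on 1, and miR-191 and miR-425 on 0. Every detection lay in columns 3 and 4. miR-26a, miR-26b and miR-107 were detected on vehicle 1, thioacetamide 2 and thioacetamide 3, and miR-103 on vehicle 1. Of the 59 miRNAs detected on at least 3 arrays, 27 (45.8%) had this same pattern of all 3 arrays in columns 3 and 4 and none in columns 1 and 2, so the 3 references are not set apart by it. Feature Extraction's own gene call added miR-103 on thioacetamide 2 and 3 and miR-425 on vehicle 1, again in columns 3 and 4.

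miR-26a gave signals before scaling of 40.7, -24.3 and -60.5 on vehicle 1 to 3 and of 128.9, 302 and 372 on thioacetamide 1 to 3. miR-26b, its seed partner, gave 44.3, -16.6 and -43.2 on the vehicle arrays and 110.1, 193 and 284 on the thioacetamide arrays. These signals are background-subtracted spot means summed over a miRNA's probes, so a value below 0 means that the probes together lay below their estimated background. For both, all 3 thioacetamide arrays lay above all 3 vehicle arrays, and within the thioacetamide group the array in columns 1 and 2 was the dimmest. Divided by the spot spread this order did not hold: vehicle 1 stood at 8.28 for miR-26a and 9.01 for miR-26b, above thioacetamide 1 at 1.33 and 1.14, where neither was detected. For each, the difference in means had an exact permutation p = 0.1. How many of all miRNAs had groups apart before scaling was not counted. On vehicle 1 the 16-base miR-26a probe gave 31.0, with 10 of 10 spots well above background. The dimmest well-above spots of vehicle 2 and vehicle 3 were at 138 and 155, so a level like that of vehicle 1 was not detectable there.

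**Figure D1:**
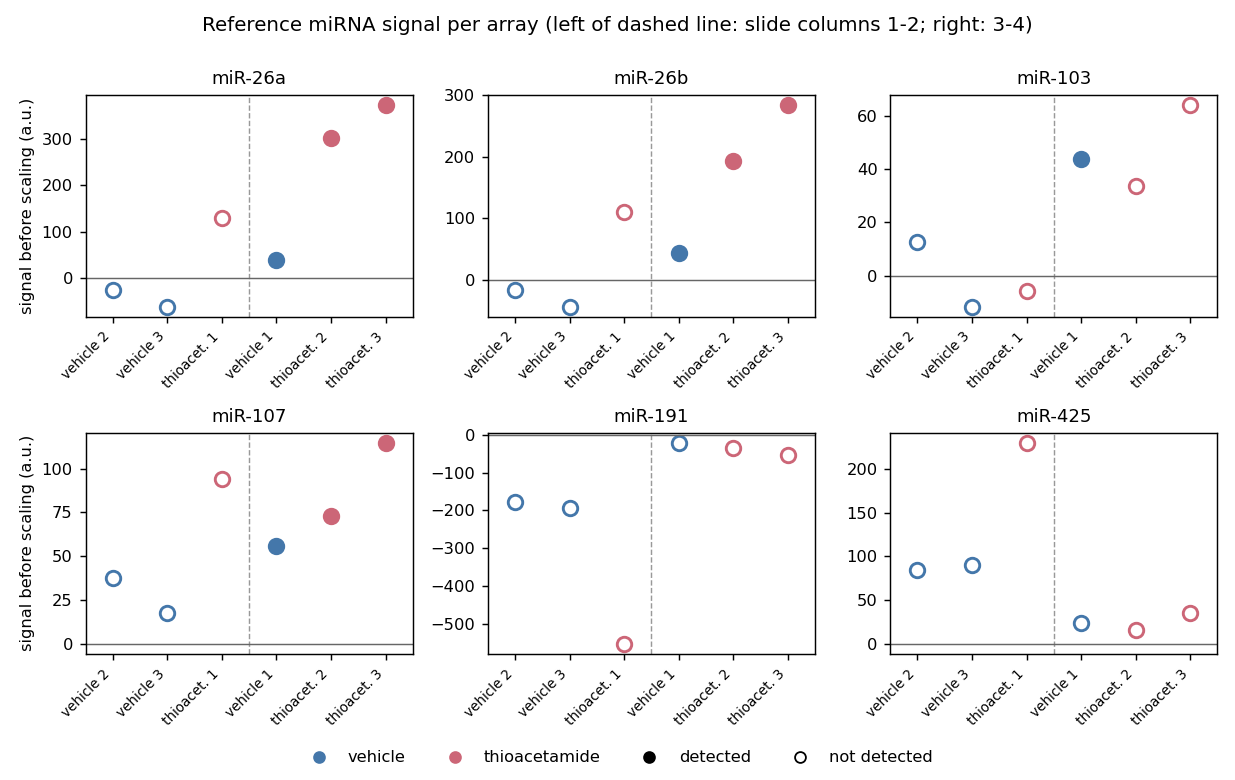
Signal before scaling (vertical axis, arbitrary units, linear, a separate range per panel) of each reference miRNA on each of the 6 arrays (horizontal axis), with filled points where it was detected and open points where it was not. Filled points occur only right of the dashed line, in slide columns 3 and 4; miR-26a and miR-26b are higher on all thioacetamide arrays, and miR-191 is below 0 on all 6.

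miR-107 gave 55.8, 37.9 and 17.6 before scaling on vehicle 1 to 3 and 94.0, 73.0 and 114.8 on thioacetamide 1 to 3. These groups did not overlap either (exact permutation p = 0.1), but they did after scaling. The share of all miRNAs with groups apart before scaling was not counted. Without scaling the median log2 change of the 59 tested miRNAs was 0.97. miR-103 gave 43.7, 12.7 and -11.6 on the vehicle arrays and -5.78, 33.7 and 63.9 on the thioacetamide arrays, and its groups overlapped (exact permutation p = 0.6). After scaling miR-107 gave 59.6, 48.8 and 28.1 on the vehicle arrays and 41.4, 94.2 and 91.9 on the thioacetamide arrays, with thioacetamide 1 below vehicle 1 and vehicle 2.

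miR-191 was below 0 on every array. Its summed signal was -20.8, -176.5 and -193.5 on vehicle 1 to 3 and -553.5, -34.4 and -54.4 on thioacetamide 1 to 3, and all 24 probe means were below 0. The order of the arrays by how far miR-191 lay below 0 was the order of their spot spread, and divided by that spread the sums lay between -5.73 and -4.23. miR-425, whose span in rn4 starts 450 bases from that of miR-191, was positive on every array without being detected on any. It gave 24.5, 84.4 and 90.4 on the vehicle arrays and 229.7, 16.5 and 35.5 on the thioacetamide arrays, brightest on the 3 arrays of widest spread. Divided by the spread, miR-425 lay between 2.11 and 4.98. The groups overlapped for miR-191 (exact permutation p = 0.8) and for miR-425 (p = 0.9, exact).

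The rank of a miRNA among the 677 of its array does not depend on how arrays are scaled. miR-26a stood at percentiles 91.9, 37.2 and 24.2 on vehicle 1 to 3 and 72.2, 97.2 and 95.7 on thioacetamide 1 to 3, and miR-26b at 93.1, 41.8 and 33.4 and at 70.6, 94.98 and 94.4. miR-107 stood at 93.6, 69.0 and 64.3 on the vehicle arrays and at 68.2, 90.8 and 90.1 on the thioacetamide arrays. miR-103 ranged from 49.5 to 92.6, miR-425 from 74.4 to 88.0 and miR-191 from 0.295 to 0.739. For miR-26a, miR-26b, miR-103 and miR-107 every array of columns 3 and 4 ranked above every array of columns 1 and 2, while their treatment groups overlapped. Other miRNAs, such as miR-24 and miR-320, had the same split by slide side, and miR-16 did not. The share of the 677 miRNAs with this split was not counted, so it does not set the references apart. Exact permutation p-values for treatment were 0.2 for miR-26a and miR-26b, 0.9 for miR-103 and 0.7 for miR-107. The arrays of columns 1 and 2 also had the wider spot spread, and the part of that spread in these ranks was not tested.

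**Figure D2:**
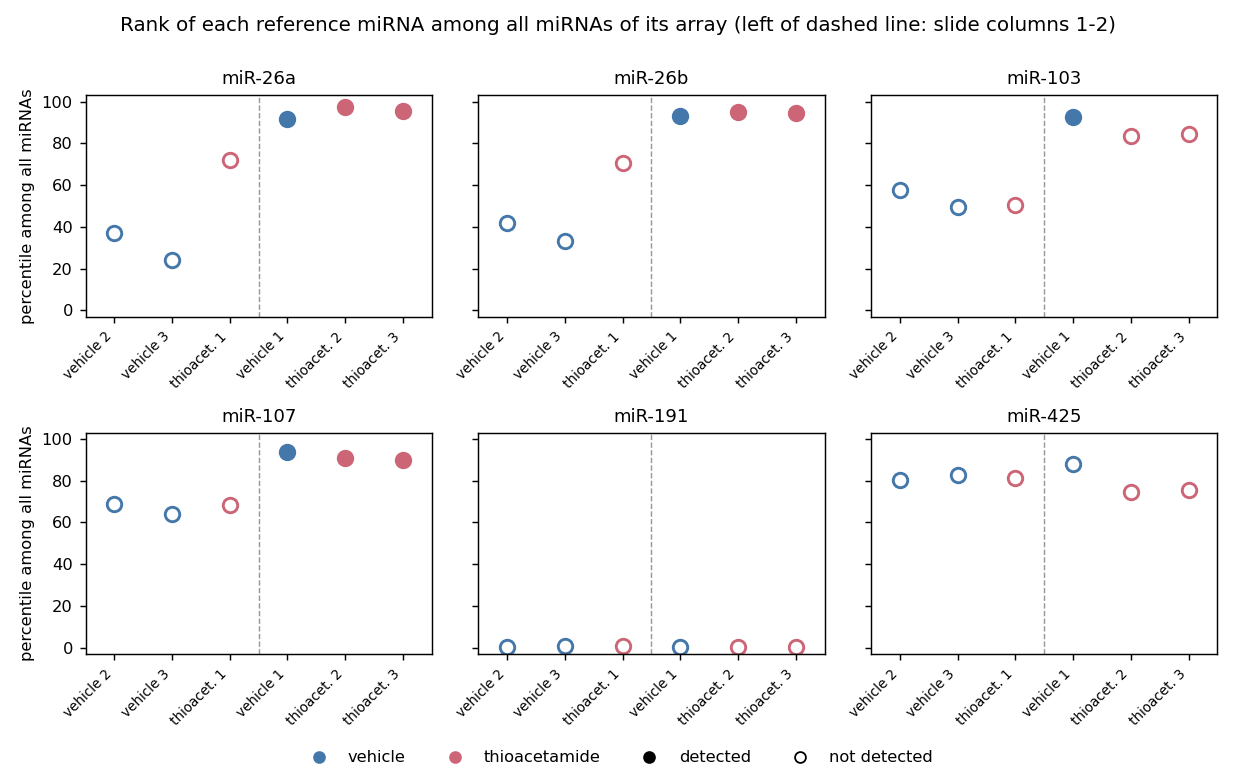
Percentile of each reference miRNA among the 677 miRNAs of its array (vertical axis, 0 to 100; higher is brighter) for the 6 arrays (horizontal axis), filled where detected. Within slide columns 3 and 4 miR-107 stays between 90.1 and 93.6, miR-26b between 93.1 and 94.98 and miR-26a between 91.9 and 97.2. A close rank there is not a steady signal: miR-26b ran from 44.3 to 284 before scaling on those arrays. miR-191 is at or under 0.739 throughout.

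For the comparison of the groups, each array was divided by the 75th percentile of the 12 probes detected on all 6 arrays, signals under 46.1 were raised to that floor, and log2 was taken. miR-26a, miR-26b and miR-107 were among the 59 tested miRNAs. By limma with Benjamini-Hochberg adjustment, 0 of the 3 references passed, against 9 of the 59 that rose (15.3%), 1 that fell (1.69%) and 10 in all (16.9%). At an unadjusted p under 0.05, 1 of the 3 passed (miR-26a), as did 16 of the 59 higher and 5 lower. miR-26a differed by 2.02 ± 0.75 (SE, n = 3 per group; 95% interval 0.21 to 3.84; adjusted p = 0.106), from a log2 level of 5.53 in every vehicle array, which is the floor, to 7.55 ± 1.51 (SD). miR-26b differed by 1.59 ± 0.68 (interval -0.05 to 3.23; adjusted p = 0.149), and miR-107 by 0.52 ± 0.42 (interval -0.49 to 1.53; adjusted p = 0.395). Their median was 1.59, against 0.45 for all 59. With vehicle arrays at the floor, the vehicle SD was 0 for miR-26a and 0.023 for miR-26b. The SEs and intervals of this pair therefore take almost no spread from the vehicle animals. The thioacetamide group lay wholly above the vehicle group for miR-26a and miR-26b, as for 27.1% of the tested miRNAs (wholly below for 10.2%, either way for 37.3%), and overlapped it for miR-107. This separation is narrow: the log2 level of thioacetamide 1, where neither was detected, was 5.83 for miR-26a and 5.60 for miR-26b, against highest vehicle levels of 5.53 and 5.57.

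Whether the miR-26 pair passed depended on the scaling and on 1 animal, and many other miRNAs passed at the same settings. Without scaling, where 22 of the 59 passed, miR-26a differed by 2.48 (adjusted p = 0.00688) and miR-26b by 2.05 (adjusted p = 0.0124). With labelling spike-in scaling, where 22 of 59 passed, they differed by 2.82 (adjusted p = 0.00552) and 2.39 (adjusted p = 0.00836). They did not pass with the percentile over all probes (1.40 and 1.01, adjusted p = 0.392 and 0.557) or with scaling by the median of the miRNAs on all arrays (1.50 and 1.04, adjusted p = 0.108 and 0.208). Without thioacetamide 1, where 25 of 53 passed, the values were 2.30 (adjusted p = 0.00322) and 1.74 (adjusted p = 0.00569), and without vehicle 3 they were 1.43 and 1.02. The size followed the floor, with 0.59 and 0.24 at a floor 4 times as high and 3.38 and 2.92 at 0.25 times; normexp background correction gave 0.94 and 0.64 and quantile normalization 0.77 and 0.46. Both stayed positive under all 21 alternatives with a test, and where both groups kept at least 2 arrays their adjusted p spanned 0.00322 to 0.467 for miR-26a and 0.00569 to 0.557 for miR-26b. Within columns 1 and 2 the differences were 0.30 and 0.07, with both vehicle arrays there at the floor, and within columns 3 and 4 they were 2.89 and 2.33 against the sole vehicle array there, which has no spread of its own. With slide side as a block they were 1.59 (adjusted p = 0.119) and 1.20 (adjusted p = 0.176).

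miR-107 passed under none of its 21 alternatives (adjusted p from 0.0955 to 1), and its direction was not fixed. It was -0.20 with normexp background correction, -0.0033 with the 75th percentile over all probes, -0.08 with quantile normalization and -0.23 without vehicle 3. It was 0.96 without scaling and 1.16 with spike-in scaling, beside medians over all tested miRNAs of 0.97 and 1.16 under those scalings.

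A reference was taken as steady if the 95% interval of its change lay within 2-fold either way, from -1 to 1 on the log2 scale. This held for 0 of the 59 tested miRNAs with 3 animals per group, so it could not be shown for any. The interval of miR-26a, whose vehicle values were all at the floor, included a 2-fold change and extended to 14.3-fold higher. That of miR-107 extended to 2.90-fold higher. The SD over the 6 arrays of the scaled, floored log2 level was 0.48 for miR-107, the 9th smallest of 59, 1.21 for miR-26b (34th) and 1.46 for miR-26a (41st), with a median of 1.14 over all 59. Arrays at the floor shrink this SD. There were 3 of them for miR-26a and 2 each for miR-26b and miR-107. The 5 smallest SDs were those of miR-25 (0.30), miR-20b-5p (0.35), miR-19b (0.38), miR-30e (0.43) and miR-20a (0.43). Of these, miR-25 and miR-19b were detected on all 6 arrays, and miR-20b-5p, miR-30e and miR-20a on 3, 3 and 4. A probe could enter the percentile scale only if its miRNA was found on every array, which was so for miR-25 and miR-19b. Probes of miR-25 and miR-19b may thus have helped to set the scale behind their own SDs. How far this made those SDs small was not tested, so they are no separate sign of a steady level.

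**Figure D3:**
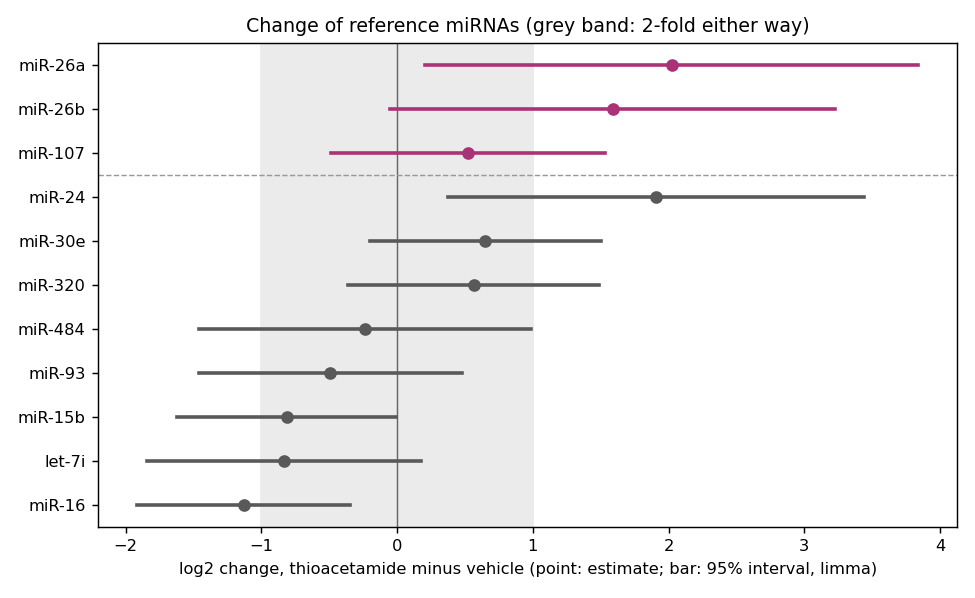
Log2 change from vehicle to thioacetamide (horizontal axis; points, limma estimates; bars, 95% intervals; 3 arrays per group) for the 3 tested references above the dashed line and 8 other commonly used ones below it. Each bar reaches outside the grey band of 2-fold either way; that of miR-26a runs from 0.21 to 3.84 and that of miR-107 from -0.49 to 1.53.

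What each detected reference would do as a scale can be read on the 3 arrays where it was measured, 1 of them a vehicle array. Relative to vehicle 1, scaling by miR-26a would divide thioacetamide 2 by 7.41 and thioacetamide 3 by 9.13, and scaling by miR-26b would divide them by 4.35 and 6.40. For miR-107 the divisors were 1.31 and 2.06. The percentile scale used here gave 0.828 and 1.33, the labelling spike-in 0.665 and 0.883, and miR-16 gave 0.327 and 0.544. miR-26a and miR-16 would thus set these animals apart from vehicle 1 in opposite directions. Over the whole slide the miR-16 groups overlapped before scaling. Its signals were 2892, 2196 and 1454 on vehicle 1 to 3 and 2865, 945 and 1574 on thioacetamide 1 to 3. Of 52 miRNAs detected on all 3 arrays, 39 were higher on both thioacetamide arrays than on vehicle 1 and 12 lower on both under the percentile scale. With miR-107 as the scale it was 33 higher and 15 lower of the other 51, with miR-26b 17 and 32, and with miR-26a 7 and 39. These are counts on 3 arrays with no test.

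**Figure D4:**
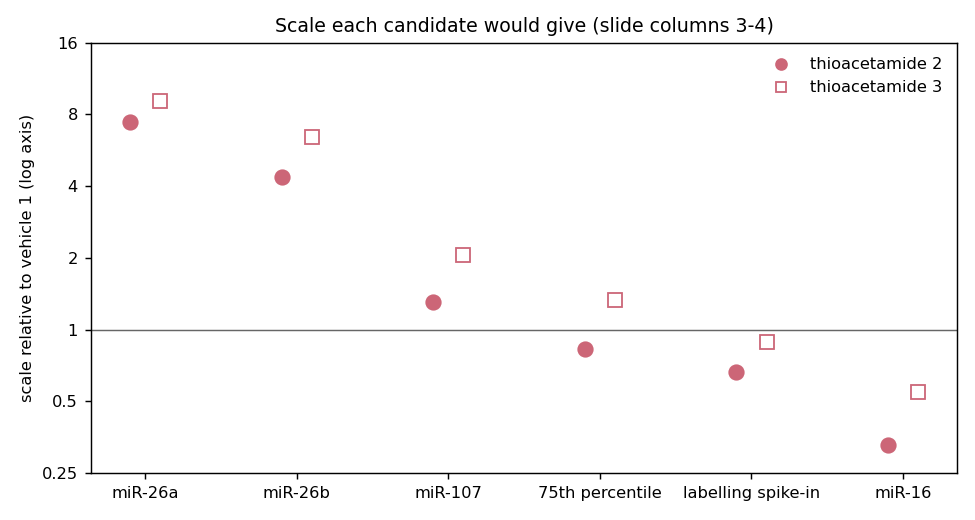
Factor by which each candidate would scale thioacetamide 2 (filled circles) and thioacetamide 3 (open squares) relative to vehicle 1 (vertical axis, log scale) for 3 references, the 75th percentile, the labelling spike-in and miR-16 (horizontal axis). The factors fall from 7.41 and 9.13 for miR-26a to 0.327 and 0.544 for miR-16. Vehicle 2, vehicle 3 and thioacetamide 1 are not shown.

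The 3 references not tested had too few detections for a comparison. Fitted without any filter, miR-103 differed by 0.04 and miR-425 by -0.58 (adjusted p = 0.507 and 0.491), but 4 of the 6 miR-103 arrays and 3 of the miR-425 arrays were at the floor, as were all 6 for miR-191. The array also holds 7 opposite (star) arms of these precursors, and 0 of them were detected on any array. Across the 6 arrays the scaled log2 levels of miR-26a and miR-26b had a Pearson r of 0.997, and the next most similar to both were miR-1224 and miR-320 (r from 0.971 to 0.990). For miR-107 they were let-7c, miR-211* and let-7b (r from 0.961 to 0.984). The arrays share a scale and a floor, and 4 of the 6 miR-320 arrays were at the floor.

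The same values were taken for other miRNAs in common use as plasma references. Of 15 names listed, 13 matched the array, 8 were tested, 1 was detected on all 6 arrays and 0 passed by limma (median -0.36). miR-16, abundant in red blood cells and detected on all 6, differed by -1.13 ± 0.33 (interval -1.91 to -0.35; adjusted p = 0.0585). miR-24 differed by 1.91, miR-30e by 0.65, miR-320 by 0.56, miR-484 by -0.23, miR-93 by -0.49, miR-15b by -0.81 and let-7i by -0.83. Their adjusted p-values by limma ran from 0.0585 to 0.762.

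Marker miRNAs of other cell types were measured on the same arrays, and hepatocyte markers rose. The summed scaled signal of the 5 hepatocyte markers, led by miR-122, was 199 to 455 on vehicle arrays and 9383 to 33325 on thioacetamide arrays, and 3 of its 4 tested members rose; miR-194 was not detected. That of the erythrocyte markers matched on the array (5 of 6, led by miR-451) was 10091 to 12837 against 5921 to 6082, and 1 of 4 tested, miR-451, fell (miR-16 stands in this list too), while miR-92a differed by 0.85 (adjusted p = 0.220 by limma); miR-144 was not detected. The erythrocyte difference depends on the scale: before scaling these sums were 6316 to 12013 against 4715 to 13712, and 0 of the 59 tested miRNAs fell without scaling or with spike-in scaling. The groups overlapped for the other lists, in which 0 markers passed. The leukocyte markers summed to 371 to 745 against 396 to 478, with miR-142-3p and miR-142-5p not detected, and the platelet and endothelial markers to 235 to 293 against 252 to 654, with miR-126, miR-126* and miR-199a-3p not detected. Their part in the levels of miR-26a, miR-26b and miR-107 was not tested.

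The probes of these miRNAs also shared a feature of the platform. In each of the 5 miRNAs with 2 probes the longer probe, 1 base longer, was brighter on all 6 arrays (30 of 30 pairs). Over all 53 tested miRNAs with such probe pairs this held in 306 of 318 pairs (96.2%), and over all 514 miRNAs with such pairs, mostly not detected, in 75.8%. For miR-26a the 15-base probe gave 96.5 on thioacetamide 2 against 205 for the 16-base probe. For miR-107 the 19-base probe was well above background on 0 spots of any array, so its detection rests on the 20-base probe.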

How the data were processed

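MiRNAs in plasma RNA of 3 vehicle and 3 thioacetamide rats were measured, 1 array each, and grouped by sample title. Per the file headers, Agilent Feature Extraction 10.7.3.1 read the scans, and the linear intensity deposited for each spot has its background estimate taken off. Arrays were not scaled to each other. The deposited matrix holds the same intensity values to within 0.005. Marked outlier spots (2126 over the 6 arrays) and control spots were left out, and 0 miRNA spots were saturated. Per the file headers, the multiple of background noise that sets the well-above-background mark was 13.

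Each probe took the mean of its unmarked spots, and the probe means of a miRNA were summed. Scaling, floor (the 5th percentile of detected scaled sums, 46.1) and filter are as given with the results, and changes near the floor depend on it. Arrays were divided by factors of 0.626 to 0.936 (vehicle) and 0.775 to 2.27 (thioacetamide). The fit was limma 3.58.1 (R 4.3.3) over all 59 tested miRNAs, treatment as the only term, threshold 0.05. It was checked on simulated normal data with a common SD and no floor, so the check does not cover values at the floor. Single values per array had exact two-sided permutation tests. Precision is limited by the number of arrays. Body weights in the labels differ from array to array, and each array was taken as an animal. Named are all 6 references, their passenger arms, 15 other references, the 3 most correlated miRNAs per tested reference, the 5 smallest SDs and 4 lists of cell marker miRNAs. The miRNAs, lists and slide sides were chosen with earlier results of these data known. Alternatives covered background correction, scaling, floor, filter, probe summary, blocks and left-out arrays.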

Additional observations from a re-analysis of the deposited data

How the results depend on the processing

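With 10 of 59 called (9 higher, 1 lower), counts moved by over 1.5 times to 6 with normexp (5 and 1), 22 without scaling (22 and 0), 22 with spike-in scaling (22 and 0), 3 when the percentile was taken over all probes (3 and 0), 16 when arrays were scaled by the median miRNA among those on all arrays (12 and 4), 19 of 99 detected on at least 1 array, 2 of 8 detected on all arrays, 2 of 677 without a filter and 37 in columns 3 and 4 alone. Quantile normalization gave 8 higher and 5 lower. Leaving out 1 animal gave 6 (without thioacetamide 3) to 25 (without thioacetamide 1). The median change of all tested miRNAs, 0.45, moved by -0.47 with normexp, 0.52 without scaling, -0.42 with the median, 0.72 with spike-in scaling and -0.43 with quantile normalization. Without vehicle 1 it was -0.46 (32 tested), without thioacetamide 2 -0.25 (30 tested) and without thioacetamide 3 -0.30 (29 tested).

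miR-26a and miR-26b kept their direction throughout. They passed without scaling (2.48 and 2.05), with spike-in scaling (2.82 and 2.39) and without thioacetamide 1. Columns 3 and 4 alone gave 2.89 and 2.33, but the sole vehicle array has no spread of its own and is assumed to vary like the others, so the calls there support nothing. Leaving out 1 animal gave 1.43 to 2.30 and 1.02 to 1.74. Within columns 1 and 2 they were 0.30 and 0.071. miR-107 was -0.20 with normexp, -0.0033 with the percentile over all probes, -0.079 with quantile normalization, -0.042 within columns 1 and 2, and 0 with its 19-base probe alone or a floor 4 times as high; leaving out 1 animal gave -0.23 to 0.50. The cause was not tested. Without vehicle 1, thioacetamide 2 or thioacetamide 3 none of the 3 was detected on enough arrays to be tested, and restricting to miRNAs detected on all arrays left none of them. Scaling by a reference over all 6 arrays was not run, since none was detected on all of them. Feature Extraction's own gene signal, columns 3 and 4 alone, each probe alone and scaling by a reference on 3 arrays were chosen after seeing the data.

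Whether replicate numbers pair animals cannot be told from these arrays. Same-numbered arrays had correlated deviations of -0.70, -0.31 and -0.66, but each such pair lay on opposite sides of the slide. Vehicle and thioacetamide arrays on the same side had correlations of 0.23 to 0.74, so pairing and slide side cannot be separated. The replicate block gave 10 calls (10 higher), with miR-26a at 2.02 (adjusted p = 0.160), miR-26b at 1.59 (adjusted p = 0.215) and miR-107 at 0.52 (adjusted p = 0.502). The dimmest spots well above background were at 138 to 437 in columns 1 and 2 and at 18.7 to 47.0 in columns 3 and 4, and the part of this in the detections was not tested.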
